A study of Mus musculus with 6 samples.

Results

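The genes described here are 10 genes of bone morphogenetic protein (BMP) signalling and of the inhibitor of DNA binding (Id) family: the ligand Bmp4, the receptor Bmpr1a, the signal transducers Smad1 and Smad5, the inhibitory Smad6, the target genes Id1, Id2, Id3 and Id4, and the homeobox gene Msx2. They were taken from the deposited count table by their Ensembl identifiers, and all 10 were found among its 43309 genes and were among the 16823 genes tested. The deposited values are gene-level fragment counts from 6 polyA-selected libraries (TruSeq Stranded mRNA) made from mouse embryonic stem cells (mESCs). Each library came from its own line of the J1 (129SV) strain. The control group held 3 lines labelled Zbtb24 wild-type (2lox/+), and the other group held 3 lines labelled Zbtb24 knockout (1lox/1lox). By the usual meaning of these names, a 2lox allele is flanked by loxP sites and a 1lox allele is the form left after recombination. All lines were grown on gelatin without feeder cells, in medium that contained serum, and the study describes the lines of a group as clones that served as biological replicates. Each group is therefore limited to 3 clones, and a difference between clones that does not come from the Zbtb24 allele cannot be told apart from one that does.

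BMPs are secreted ligands that bring type I and type II receptors together. The type I receptor then phosphorylates Smad1, Smad5 and Smad9, which enter the nucleus with Smad4 and switch on target genes, among them the Id genes. Id proteins hold a helix-loop-helix domain but no DNA-binding region, and they keep E proteins such as Tcf3 and Tcf12 from binding DNA. In mESCs grown with serum or BMP4, Id proteins are known for holding back neural differentiation, and Smad6 and Smad7 are induced by the pathway and dampen it.

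Library totals ranged from 25042261 to 28838924 counts, and levels are given as TMM-normalized counts-per-million values (cpm). The control lines held 510, 512 and 489 fragments of Zbtb24 itself, against 888, 925 and 1039 in the lines labelled knockout, a log2 fold change of 0.99 (SE 0.05, adjusted p = 4.32e-23). The count of the whole gene thus went against the label, and per-gene counts do not show which exons were read, so the second group is called "labelled knockout" throughout. The mESC markers Pou5f1, Nanog, Sox2, Zfp42, Esrrb and Klf4 were all present, with a summed level of 3060 to 3127 cpm in the control lines and 4071 to 4135 cpm in the lines labelled knockout. Among these, Nanog rose by 1.13, Esrrb by 1.16 and Klf4 by 1.90 on the log2 scale, whereas Zfp42 fell by 0.77.

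In the libraries labelled knockout, Id1, Id2 and Id3 were at 0.382, 0.321 and 0.419 of their control levels, and Msx2 was at 0.341. Smad6 was at 0.611 of its control level, Bmp4 at 0.823 and Bmpr1a at 0.887, while Smad5 was 1.21-fold higher. Of the 10 genes, 8 fell, 1 rose and Smad1 did not pass the threshold, set at an FDR (false discovery rate, Benjamini-Hochberg) no higher than 0.05 over all genes in the quasi-likelihood test of edgeR. At this threshold 69.5% of all genes tested were called, 34.4% as higher and 35.2% as lower in the libraries labelled knockout, so being called is in itself common in this comparison. The median log2 fold change of the 10 genes was -0.58, and that of all genes tested was -3.63e-04. The 10 genes were chosen with earlier results of these data known. This median and the shares below therefore describe the list and are no test of it. A log2 fold change of -1 or beyond together with the FDR was reached by 11.8% of the genes tested and by Id1, Id2, Id3 and Msx2, and 17% of the genes tested passed a log2 fold change of 1 in either direction. Beyond the test, the normalized levels of 9 of the 10 genes did not overlap between the groups, which also held for 71.5% of all genes, and 7 of the 10 were lower without overlap, against 36.2%. For the median gene, pairs of lines within a group differed little beyond counting error, with a squared difference 1.12 to 1.597 times that of counting alone. The mean over genes was higher, 1.14 to 2.24 times, and the common coefficient of variation in edgeR was 2.00%. The coefficient of variation of Id1 was larger, 6.24% in the control lines and 8.76% in the lines labelled knockout. The medians over genes above 1 cpm were 3.65% and 3.92%. The p-values rest largely on counting error, which is small at this depth, and on a spread partly shared over genes. They can thus be too small for a gene such as Id1, whose 3 clones per group vary more. In bulk libraries, fewer cells that express a gene and less RNA per cell cannot be told apart.

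**Figure D1:**
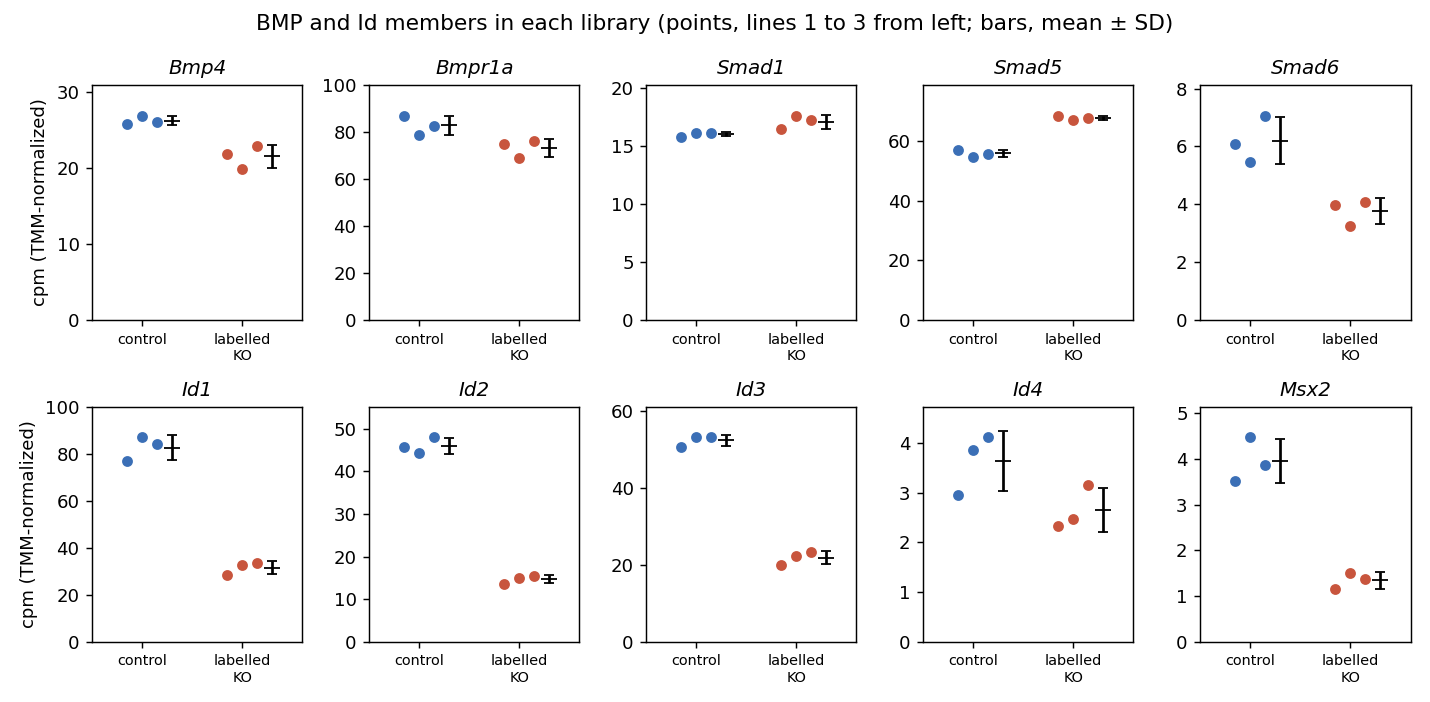
Normalized level of each of the 10 genes in every library, in cpm, on linear axes that start at 0 and differ between panels. Points are lines 1 to 3 of each group from left to right, and bars are the mean ± SD (n = 3). The groups do not overlap in any panel but that of Id4. The gap between them is narrow for Bmpr1a and for Smad1, which did not pass the FDR threshold.

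Short stretches of the promoters are shown first, because the Id genes are a textbook case of genes with Smad-bound elements. The 250 bases upstream of the RefSeq start sites (build GRCm38.p6) were searched on both strands for GGCGCC, a GC-rich palindrome of the kind bound by BMP-activated Smads, and for CAGAC or its reverse complement GTCTG, the short Smad-binding sequence. The table held 11 such windows for 9 of the 10 genes, with Id1 as the gene without one. GGCGCC was found in 4 windows, those of Bmpr1a, Id2, Id4 and 1 start site of Smad5, and CAGAC in 2, those of Id3 and another start site of Smad5. Of all 32851 promoter windows of this length, 9.59% held GGCGCC and 42.2% held CAGAC on either strand. The windows of these genes were GC-rich, at 60 to 78.8% GC against a median of 52.4% over all windows. The RefSeq windows of Id2 and Id3 lie inside the bounds that GENCODE gives these genes, whose longest annotation starts further upstream, and that of Id4 lies outside. The matches in the Id genes are printed 5′ to 3′ on the strand of the gene, with the matched letters in capitals and 12 bases on each side.
Id2, 231 bases upstream, chr12:25096306-25096335, minus strand: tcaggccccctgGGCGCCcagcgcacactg
Id4, 148 bases upstream, chr13:48260956-48260985, plus strand: ctcgggttgcccGGCGCCccgccctcgcca
Id3, 167 bases upstream, chr4:136143643-136143671, plus strand: tgtcctcggcgtCAGACcagcctaaggaa
Id3, 68 bases upstream, chr4:136143742-136143770, plus strand: ggacccttggcgGTCTGttttgaataagg
These matches describe the letters of the sequence, and no binding was measured. Sequence beyond the 250 bases was not searched, so the matches are not taken to be the known Smad-bound elements. Whether a match bears on the change of a gene was not tested. GGCGCC was also found in Bmpr1a (chr14:34502727-34502756, minus strand, tgcgcgcgcgccGGCGCCtcttgctcgccc) and Smad5 (chr13:56703021-56703050, plus strand, ccccggcgagcgGGCGCCgagcgcttgtcc). Both of these matches lie inside the bounds that GENCODE gives their genes.

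Among the ligands, Bmp4 (ENSMUSG00000021835, mm10 chromosome 14 as for all gene positions here, 46383520 to 46390669, minus strand) encodes the BMP used to support mESC self-renewal in culture. Its counts were 725, 740 and 718 in the control lines and 572, 491 and 646 in the lines labelled knockout. Every control line lay above every line labelled knockout, at 26.3 ± 0.594 cpm against 21.6 ± 1.496 cpm (SD, n = 3 each). The log2 fold change was -0.28 (SE 0.0519, adjusted p = 5.37e-06). Bmpr1a (ENSMUSG00000021796, chromosome 14, 34410734 to 34503341, minus strand) encodes a type I receptor for these ligands. Its counts were 2449, 2162 and 2273 in the control lines and 1955, 1700 and 2154 in the lines labelled knockout. After normalization the groups did not overlap, at 82.8 ± 4.18 and 73.4 ± 3.84 cpm (SD, n = 3 each), but the gap between the lowest control line, 78.7 cpm, and the highest line labelled knockout, 76.3 cpm, was smaller than the SD of either group. The log2 fold change of Bmpr1a was -0.17 (SE 0.0357, adjusted p = 3.41e-05).

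Of the receptor-regulated Smads, Smad5 rose and Smad1 did not pass. Smad5 (ENSMUSG00000021540, chromosome 13, 56703010 to 56742377, plus strand) was counted in 1602, 1504 and 1532 fragments in the control lines and in 1789, 1649 and 1911 in the lines labelled knockout. Its groups did not overlap, at 55.8 ± 1.10 and 67.7 ± 0.762 cpm (SD, n = 3 each), and it rose by 0.28 on the log2 scale (SE 0.0341, adjusted p = 5.89e-10). It is the only one of the 10 genes that rose at this threshold, and it did so under every alternative setting at the same minimum fold change. Smad1 (ENSMUSG00000031681, chromosome 8, 79338395 to 79399518, minus strand), which acts alongside Smad5, was counted in 445, 444 and 443 fragments in the control lines and in 430, 434 and 486 in the lines labelled knockout. Its log2 fold change was 0.09 with a 95% interval from -0.02 to 0.21 (adjusted p = 0.153), an interval that ends below the value of Smad5. Its normalized levels did not overlap between the groups either, at 15.8 to 16.2 and 16.5 to 17.6 cpm. Per kb of the longest annotated transcript, the level of Smad5 was 2.00 ± 0.0621 times that of Smad1 in the control lines and 2.27 ± 0.105 times in the lines labelled knockout (SD, n = 3 each). Smad5 shares an exonic stretch with the small RNA gene Gm27301 on the same strand, and fragments assigned to both were discarded.

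Smad6, an inhibitory Smad that the pathway itself induces, fell. Smad6 (ENSMUSG00000036867, chromosome 9, 63953076 to 64022059, minus strand) was counted in 171, 150 and 194 fragments in the control lines and in 104, 80 and 115 in the lines labelled knockout. The lowest control line, at 5.46 cpm, stood above the highest line labelled knockout, at 4.07 cpm. Its log2 fold change was -0.71 (SE 0.112, adjusted p = 2.49e-07). The related Smad7, which dampens both BMP and TGF-beta signalling, moved the other way. It was counted in 1385, 1371 and 1376 fragments in the control lines and in 1764, 1804 and 2172 in the lines labelled knockout, and it rose by 0.55 on the log2 scale (SE 0.038, adjusted p = 8.71e-18). Per kb of transcript, the level of Smad7 was 5.63 ± 0.711 times that of Smad6 in the control lines and 13.5 ± 1.97 times in the lines labelled knockout (SD, n = 3 each).

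The Id genes are textbook direct targets of the pathway, and the 3 abundant ones fell, Id2 by the most. Id1 (ENSMUSG00000042745, chromosome 2, 152736251 to 152737410, plus strand) was counted in 2167, 2392 and 2309 fragments in the control lines and in 743, 803 and 951 in the lines labelled knockout. The groups were far apart, at 82.7 ± 5.16 and 31.6 ± 2.77 cpm (SD, n = 3 each), a log2 fold change of -1.39 (SE 0.0445, adjusted p = 4.43e-31). Id2 (ENSMUSG00000020644, chromosome 12, 25093799 to 25097140, minus strand) was counted in 1284, 1220 and 1318 fragments in the control lines and in 356, 370 and 439 in the lines labelled knockout. It had the largest fall of the 10 genes, from 46.0 ± 1.83 to 14.7 ± 0.992 cpm (SD, n = 3 each), with a log2 fold change of -1.64 (SE 0.0509, adjusted p = 1.09e-31), although its 95% interval, from -1.74 to -1.54, overlaps that of Msx2. Id3 (ENSMUSG00000007872, chromosome 4, 136143497 to 136145755, plus strand) was counted in 1427, 1460 and 1458 fragments in the control lines and in 520, 551 and 659 in the lines labelled knockout. Its levels were 52.3 ± 1.39 and 21.9 ± 1.77 cpm (SD, n = 3 each), and its log2 fold change was -1.26 with a 95% interval from -1.35 to -1.16 (adjusted p = 1.65e-28).

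Id4, the least abundant of the family in these cells, fell by less and with overlap between the groups. Id4 (ENSMUSG00000021379, chromosome 13, 48261228 to 48266026, plus strand) was counted in 83, 106 and 113 fragments in the control lines and in 61, 61 and 89 in the lines labelled knockout. After normalization its groups overlapped, since control line 1 at 2.95 cpm lay below line 3 labelled knockout at 3.15 cpm. The log2 fold change was -0.44 (SE 0.139, adjusted p = 0.00421), and with 1 library left out in turn it ranged from -0.59 to -0.35 with adjusted p-values up to 0.0442. An antisense gene, A330033J07Rik, overlaps exons of Id4 on the opposite strand, and the counting used the strand. Within the groups, line 1 was the lowest of the lines labelled knockout in Id1, Id2, Id3, Id4 and Msx2, and control line 1 was the lowest control line in Id1, Id3, Id4 and Msx2.

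Msx2, a homeobox transcription factor and a well-known BMP target in ectoderm and limb, was rare in these cells and fell. Msx2 (ENSMUSG00000021469, chromosome 13, 53466884 to 53473074, minus strand) was counted in 99, 123 and 106 fragments in the control lines and in 30, 37 and 39 in the lines labelled knockout. The lowest control line, at 3.52 cpm, was well above the highest line labelled knockout, at 1.503 cpm. The log2 fold change was -1.55 (SE 0.153, adjusted p = 1.13e-12). Its paralog Msx1, named after its values were seen, was counted in 67, 78 and 93 fragments in the control lines and in 10, 7 and 12 in the lines labelled knockout, a log2 fold change of -2.95 (SE 0.23, adjusted p = 4.91e-16).

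**Figure D2:**
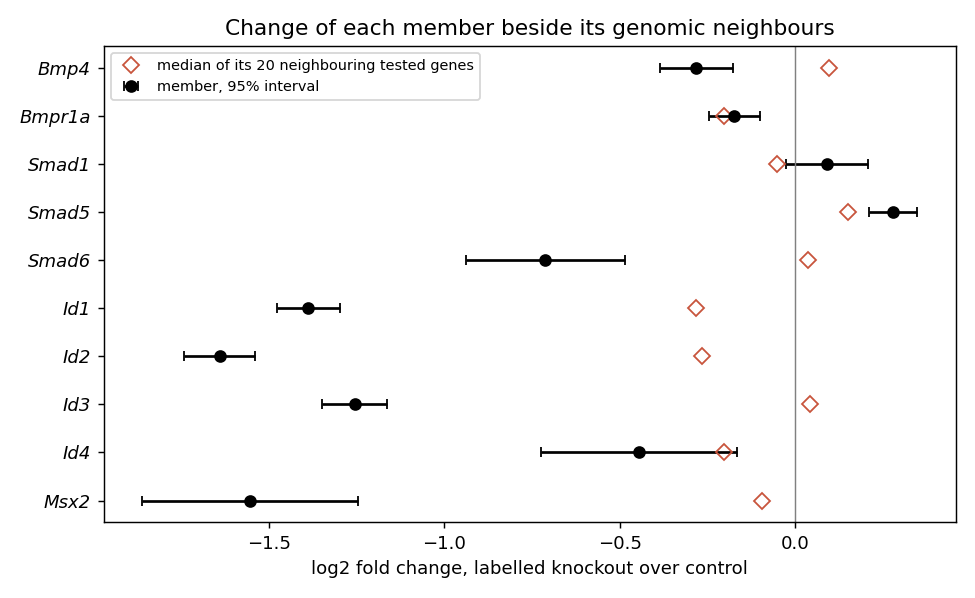
Log2 fold change (labelled knockout over control) of each of the 10 genes with its 95% interval (black, edgeR's quasi-likelihood fit, 3 lines per group). Open diamonds are the median log2 fold change of its 20 neighbours, the 10 tested genes on each side of it. Id1, Id2, Id3, Smad6 and Msx2 lie far to the left of the median of their neighbours, and Bmpr1a lies close to that of its own.

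Each gene was also set beside the 10 tested genes on each side of it. These neighbours covered stretches of unlike length, such as 34051126 to 41124412 on chromosome 14 around Bmpr1a. Around Id3 they covered 135855747 to 136835988 on chromosome 4. The 20 neighbours of Id3 had a median log2 fold change of 0.04, and 1 of them was as low as Id3 or lower. For Id1 the median of the neighbours was -0.28, for Id2 -0.27 and for Msx2 -0.09, and in each case 2 of the 20 were as low or lower. Smad6 stood against a median of 0.04, with 3 of 20 as low or lower. The fall of Bmpr1a, in contrast, was no larger than that of its surroundings, whose median was -0.20 with 10 of 20 genes as low or lower. The neighbours of Smad5 had a median of 0.15, and 11 of 20 were at or below Smad5, so that its rise, like the fall of Bmpr1a, was of a common size among its neighbours. For Id4 the median was -0.20 with 2 of 20 as low or lower, and for Smad1 it was -0.05 with 16 of 20 at or below it. Over all tested genes of chromosome 8, where Smad1 lies, the median log2 fold change was -0.23. Over the chromosomes of the other members it was between -0.02 and 0.03. The markers Zfp42, Sox1 and Tubb3 also lie on chromosome 8. The part of this chromosome-wide difference in the values of single genes was not tested. Bmp4, on the same chromosome as Bmpr1a, had neighbours with a median of 0.10, and 4 of 20 were as low or lower.

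Levels were compared between genes per kb of the longest annotated transcript. In the control lines Id1 was the highest of the 10 at 71.3 ± 4.45 cpm per kb (SD, n = 3), followed by Id3 at 40.9 ± 1.09, Id2 at 23.4 ± 0.931, Bmpr1a at 13.9 ± 0.701, Bmp4 at 12.7 ± 0.288, Smad5 at 8.48 ± 0.167, Smad1 at 4.25 ± 0.051, Smad6 at 2.09 ± 0.273, Msx2 at 1.61 ± 0.198 and Id4 at 0.946 ± 0.159. No neighbours in this order overlapped between lines, although the lowest value of Smad6, 1.84, was close to the highest of Msx2, 1.82. In the lines labelled knockout Id1 and Id3 were still the highest, at 27.2 ± 2.38 and 17.1 ± 1.39 cpm per kb (SD, n = 3 each), but Id2, at 7.48 ± 0.504, had dropped from rank 3 to rank 6, below Bmpr1a, Bmp4 and Smad5. In that group Bmp4 and Smad5 overlapped, as did Id4 and Msx2.

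**Figure D3:**
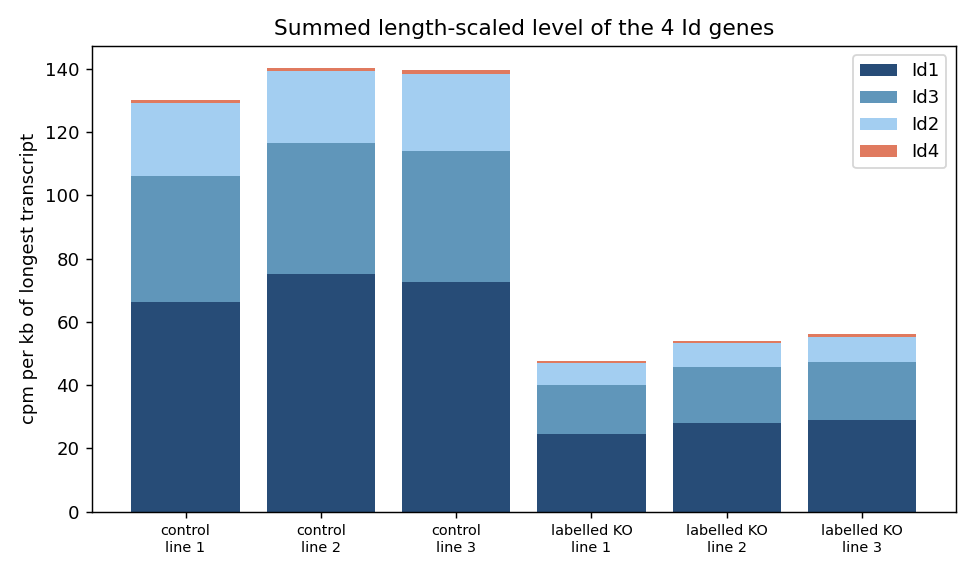
Summed level of the 4 Id genes in each library, in cpm per kb of the longest transcript of each gene, stacked by gene. The control lines reach 130 to 140.2 and the lines labelled knockout 47.6 to 56.0, and Id1 takes the largest part of every bar.

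Summed over the family, the Id level was 130, 140.2 and 139.5 cpm per kb in control lines 1 to 3 and 47.6, 53.9 and 56.0 in the lines labelled knockout. Id1 took about the same part of this sum in both groups, 52.2% ± 1.25 in the control lines and 51.8% ± 0.337 in the lines labelled knockout (SD, n = 3 each). The share of Id2 was 17.1% ± 0.92 against 14.3% ± 0.236, and that of Id3 30.0% ± 0.465 against 32.6% ± 0.11, and in both genes the groups did not overlap. Id4 took 0.69% ± 0.0911 and 1.31% ± 0.138, also without overlap. These shares are descriptions and were not tested.

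The E proteins are the partners that Id proteins bind. Tcf3, the gene of the E2A proteins and the most abundant of them here, was at 166 ± 4.67 cpm in the control lines and 140.5 ± 2.81 in the lines labelled knockout (SD, n = 3 each) and fell by 0.24 on the log2 scale (adjusted p = 8.36e-11). Tcf4 and Tcf12 rose by 0.58 and 0.34 (adjusted p = 8.36e-17 and 1.57e-08). Per kb of transcript, the 3 E proteins together were at 64.9 ± 1.79 cpm per kb in the control lines and 59.3 ± 1.24 in the lines labelled knockout. The summed Id level was thus 2.11 ± 0.0881 times the summed E protein level in the control lines (SD, n = 3). In the lines labelled knockout it was 0.888 ± 0.0902 times that level (SD, n = 3). Each control line lay above 2.02 and each line labelled knockout below 0.96. Which of the 2 sums is the larger, and the fall of the E protein sum, depend on the division by length. The longest transcript of Id1 has 1160 bases, and those of Tcf4 and Tcf12 have 8577 and 6299. These are levels of mRNA, and protein was not measured.

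**Figure D4:**
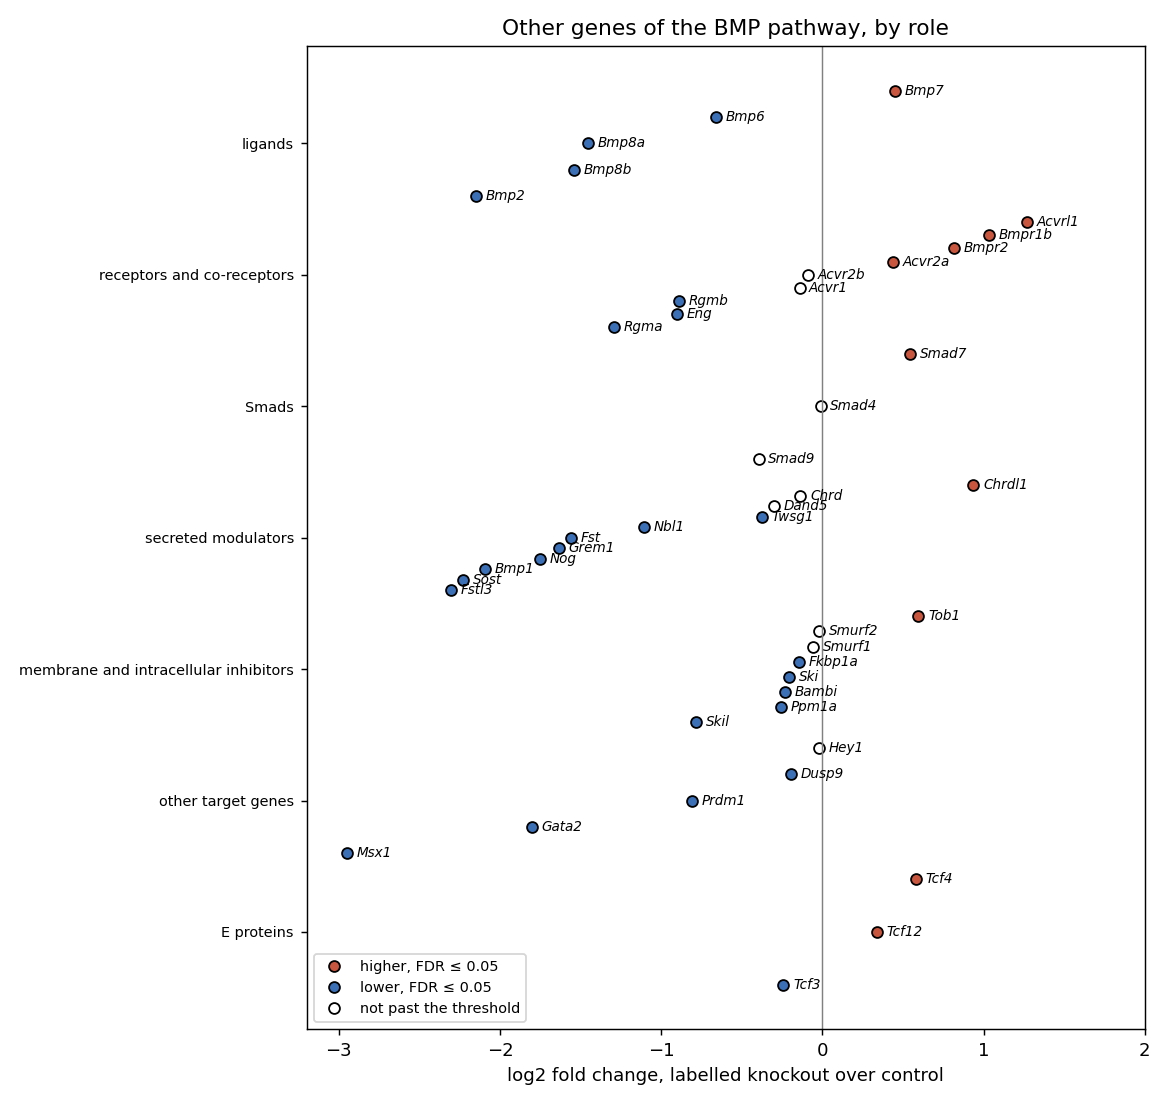
Log2 fold change (labelled knockout over control) of the other tested genes of the BMP pathway, grouped by role, with 1 point per gene. Red points rose and blue points fell at the FDR threshold of 0.05, and white points did not pass. Blue points lead among the ligands, secreted modulators and other target genes, and the receptors are split.

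The list of other genes held 59, of which 44 were tested, and it includes the 3 E proteins, of which 2 rose and 1 fell. In this list 25 fell, 10 rose and 9 did not pass, with a median log2 fold change of -0.25. The list, too, was chosen with earlier results of these data known. Since 35.2% of all genes tested were called as lower and 34.4% as higher, many calls in each of the lists below are what the background gives. Of the 13 other ligands only 5 were tested, because the others had fewer than 10 counts in every library. Bmp8b was the most abundant of these, with 213, 226 and 180 fragments in the control lines and 76, 50 and 76 in the lines labelled knockout, and it fell by 1.54 on the log2 scale (adjusted p = 3.67e-16). Bmp8a, which is nearly identical to Bmp8b in sequence and may have lost shared fragments, fell by 1.46, while Bmp2 had a log2 fold change of -2.15 on 14 to 19 against 3 to 4 fragments. Bmp6 passed at -0.66 (adjusted p = 0.0203), but its groups overlapped. Bmp7 rose by 0.45 (adjusted p = 0.00456).

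Of the 9 other receptors and co-receptors 4 rose, 3 fell and 2 did not pass, with a median log2 fold change of -0.09. Bmpr2, the main type II receptor for BMPs, was counted in 1221, 1133 and 1089 fragments in the control lines and in 1856, 1796 and 2118 in the lines labelled knockout, a rise of 0.82 on the log2 scale (adjusted p = 6.93e-25). Acvr2a, a type II receptor shared with activin, rose by 0.44, Bmpr1b by 1.03 and Acvrl1 by 1.27. The larger rises rest on few fragments, 52 to 77 against 126 to 136 for Bmpr1b and 19 to 24 against 39 to 58 for Acvrl1. Acvr1 and Acvr2b did not pass, at -0.14 and -0.09 (adjusted p = 0.166 and 0.204). Eng, a co-receptor, was counted in 962, 919 and 929 fragments in the control lines and in 473, 433 and 521 in the lines labelled knockout and fell by 0.90 (adjusted p = 5.88e-22), and the co-receptors Rgmb and Rgma fell by 0.89 and 1.29.

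Smad4, the common partner of all receptor-regulated Smads, did not pass. It was counted in 2122, 2046 and 2014 fragments in the control lines and in 1869, 1869 and 2095 in the lines labelled knockout, with a log2 fold change of -0.01 and a 95% interval from -0.08 to 0.06. Smad9 was seen in 12 to 23 fragments per library and did not pass, at -0.40 (adjusted p = 0.225).

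Of the 15 secreted modulators 11 were tested, and 8 of these fell. Twsg1, which binds BMPs and chordin, fell by 0.37 (adjusted p = 1.44e-10). Bmp1, a protease that cleaves chordin and procollagens and is no BMP ligand, was counted in 389, 398 and 413 fragments in the control lines and in 81, 77 and 109 in the lines labelled knockout and fell by 2.09 (adjusted p = 1.03e-25). The antagonist Chrd itself did not pass, at -0.14 (adjusted p = 0.371), nor did Dand5, at -0.30 (adjusted p = 0.0875). Chrdl1 was the one that rose, by 0.94, on 10 to 16 against 20 to 32 fragments. The other antagonists that fell were Nog, Grem1, Fst, Fstl3, Nbl1 and Sost, with log2 fold changes from -1.11 in Nbl1 to -2.30 in Fstl3. Of these, Fst and Fstl3 are better known as binders of activin and Sost as an inhibitor of Wnt signalling, and Nog, Grem1 and Sost were seen in at most 20 fragments per library.

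Of the 8 membrane and intracellular inhibitors 5 fell, by small amounts except for 1. Skil, a co-repressor of Smad complexes, was counted in 5196, 4903 and 4964 fragments in the control lines and in 2887, 2593 and 2847 in the lines labelled knockout, a fall of 0.78 on the log2 scale (adjusted p = 2.98e-28). Fkbp1a, which holds type I receptors inactive, fell by 0.15, Ppm1a, a phosphatase, by 0.25, Ski by 0.21 and the decoy receptor Bambi by 0.23. Tob1 rose by 0.60, and the ubiquitin ligases Smurf1 and Smurf2 did not pass, at -0.06 and -0.02.

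Of the 8 other target genes 5 were tested and 4 fell. Dusp9, an ERK phosphatase that BMP4 induces in mESCs, was counted in 3130, 3208 and 3182 fragments in the control lines and in 2596, 2493 and 2808 in the lines labelled knockout, a fall of only 0.20 on the log2 scale (adjusted p = 8.03e-08). Prdm1, needed for germ cell specification, had a log2 fold change of -0.81 and Gata2, a factor of blood and trophoblast, one of -1.80 (adjusted p = 5.12e-16 and 1.71e-18). Hey1 did not pass, at -0.02 (adjusted p = 0.888). The target genes therefore did not move by like amounts, from -0.02 in Hey1 to -2.95 in Msx1.

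Genes of the pathway are also expressed in cells other than mESCs, and some markers of such cells moved with the groups. The 5 fibroblast or feeder markers summed to 59.6 to 61.8 cpm in the control lines and to 12.3 to 13.0 cpm in the lines labelled knockout. Of the 5, 4 fell, among them Col1a1, with 1095 to 1188 fragments against 92 to 110, and Pdgfrb did not pass. Col1a1, at a mean of 41.1 against 3.93 cpm, made up most of the fall of this sum. The trophoblast markers summed to 12.8 to 13.6 against 6.62 to 8.37 cpm, with 2 of 4 falling, among them Hand1 with a log2 fold change of -3.15, and Eomes rising by 0.40. The fall of this sum came from Hand1, at a mean of 7.37 against 0.828 cpm, while Eomes was at 4.68 against 6.21 cpm. The endoderm markers, of which 3 of 4 fell, summed to 3.34 to 3.86 against 1.84 to 2.56 cpm, and the mesoderm markers, of which 1 rose and 1 fell, to 5.08 to 5.68 against 4.14 to 4.53 cpm. Of the neural markers, Tubb3 was at 176 ± 3.40 cpm in the control lines and 236 ± 3.91 cpm in the lines labelled knockout (SD, n = 3 each), a rise of 0.42 on the log2 scale. Sox1 rose by 1.23 and Pax6 fell by 0.44. The part of these cells or of these expression states in the falls of the Id genes, Msx2 and the modulators was not tested.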

How the data were processed

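Libraries were made with the TruSeq Stranded mRNA kit from 2 µg of total RNA with 8 PCR cycles. The deposited values are raw counts: per the labels and the study's methods, the authors removed rRNA reads with Bowtie2 2.1.0, mapped the rest to mm10 with TopHat 2.0.10 and counted fragments per GENCODE gene with HTSeq 0.6.1, using the strand and discarding fragments that hit multiple genes or locations. Symbols, positions and lengths (longest transcript) came from GENCODE on the same build, which matched 42425 of 43309 genes by identifier. Genes that reached 10 counts in 1 or more libraries were tested over all 6 libraries in R 4.3.3 with edgeR 4.0.16 (TMM, quasi-likelihood test, Benjamini-Hochberg over the 16823 genes). The SE is the log2 fold change divided by the square root of F. The test was first tried on simulated counts, where 6.6% of 212 calls were false at the FDR threshold of 0.05. With no gene changed it made 0 calls. Only genes with a mean of 50 or more counts were changed, so the trial does not cover changes in rarer genes. The members and gene lists were chosen with earlier results of these data known. Besides the members, Zbtb24 and the mESC markers, named genes are the 3 of highest mean cpm in each pathway list, all listed Smads and E proteins, markers over 1 cpm and the 2 genes nearest in pattern to each Id gene. Other list genes were named after their values were seen, to account for the counts. Alternatives used DESeq2 1.42.0, limma 3.58.1, other edgeR tests, scalings, filters and thresholds, a block for the replicate number, and leaving out single libraries. A neural marker gene is not reported here. Counting error is a minimum, since PCR duplicates carried no molecular identifiers.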

Additional observations from a re-analysis of the deposited data

How the results depend on the processing

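Under all 16 alternatives that kept the minimum fold change (other scalings, tests, filters, a stricter FDR, the replicate block and each library left out), the same direction and side of the threshold were found for each of the 10 genes, 9 were called, and 32 to 37 of the other pathway genes were called. A minimum log2 fold change of 1 in either direction left 4 of the 10 genes, 15 of the other pathway genes and 2865 of all genes, and it dropped Zbtb24, at 0.99. With the replicate number as a block, 11801 genes, 9 of the 10 and 35 of the others were called. Same-numbered lines did not deviate together (correlations from 0.0136 to 0.0744 across genes), so the numbers are not taken to pair the lines. Left-out libraries gave 11059 to 11304 calls over all genes. Without division by length the 10 genes summed to 376 cpm in the control lines and 256 cpm in the others, and the Id family shares of Id1, Id2, Id3 and Id4 became 44.8, 24.9, 28.3 and 1.96% in the control lines and 44.6, 20.8, 30.9 and 3.74% in the lines labelled knockout, because the longest transcripts differ in length. Limits are the 3 clones per group, Zbtb24 counts that go against the label, no measure of Smad phosphorylation or protein, and few fragments for Id4, Msx2 and Smad6.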

Other observations

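The genes whose pattern over the 6 libraries was nearest to that of each Id gene, by Euclidean distance between centred log2(cpm + 1) values, were not genes of the BMP lists. For Id1 they were Naprt and Sfi1, with log2 fold changes of -1.47 and -1.38, for Id2 Plekhg1 and Slc27a2 with -1.72 and -1.68, for Id3 Bag3 and Cbarp with -1.29 and -1.24, and for Id4 Prr5l and the microRNA gene Mir291b with -0.38 and -0.51. With 2 groups that stand apart, this measure mostly finds genes with a fold change of like size.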
